A study of Mus musculus with 6 samples.

Results

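The Hox genes are homeobox genes that lie in 4 clusters, HoxA to HoxD, and carry paralogue numbers from 1 to 13 by their place in the cluster. They were taken as every probe set whose platform annotation gives a single symbol of the form Hoxa to Hoxd with a number. This found 37 Hox genes, each by 1 probe set, out of 19938 genes measured: 10 in HoxA and 9 each in HoxB, HoxC and HoxD. Hoxb8 shared a probe set with Hoxb7, which is given apart.

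The tissue was the mandibular arch, the part of the first pharyngeal arch that forms the lower jaw, dissected at embryonic day 9.5 (E9.5) from C57BL/6 embryos. Embryos lacking Tbx1, a T-box transcription factor gene of the pharyngeal apparatus (Tbx1-/-, called Tbx1 null), were compared with Tbx1+/+ embryos (called wild type), with 3 Affymetrix Mouse Gene ST 1.0 arrays for each genotype. Arches of 3 embryos of a genotype were pooled to give enough RNA, and the series description leaves unclear whether each array held a separate pool. The sources used here do not describe the null allele or give a somite count for either genotype.

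Hox proteins give segments along the body axis their identity, and the genes at the low-numbered end of a cluster are active furthest forward, in the hindbrain and in the neural crest that leaves it. The crest of the first arch is known for lacking Hox expression. The second arch expresses the genes of paralogue group 2, among which Hoxa2 selects second-arch over first-arch skeletal identity. MEIS, PBX and PKNOX proteins of the TALE homeodomain class bind DNA together with Hox proteins, and retinoic acid and Polycomb proteins are known regulators of the clusters.

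Values are log2 expression levels, and changes are Tbx1 null minus wild type. A gene was called when its limma p-value, adjusted over all genes by the Benjamini-Hochberg method, was under 0.05. The array medians lay between 7.98 and 8.04 over all probe sets, and the median standard error of a change was 0.0579. Arrays have no read depth, and the number of arrays limits the precision. The values carry no detection call, so a low level cannot be read as a transcript that was present or absent. Nothing in the labels says that the arrays of a genotype came from separate embryos. A p-value here thus speaks of the spread among these arrays, and how much of that is technical is not known. Y-linked Eif2s3y was at 9.85, 9.53 and 5.79 on Tbx1 null replicates 1, 2 and 3. Tbx1 null replicate 3 thus did not carry the same RNA as the other arrays of its genotype. On wild-type replicates 1, 2 and 3 Eif2s3y was at 8.91, 9.24 and 10.18, and Xist of the X chromosome at 12.68, 12.46 and 11.94. Their wild-type SDs were 0.66 and 0.38, against a median SD within a genotype of 0.064 over all genes. Y-linked Uty (8.32, 8.93 and 9.62) and Kdm5d (8.48, 9.06 and 9.75) rose in the same order as Eif2s3y on wild-type replicates 1, 2 and 3. The wild-type arrays thus differed in sex-linked RNA, and whether they held separate pools was not tested. Tbx1 itself was at 9.48, 9.39 and 9.63 in Tbx1 null and at 11.64, 11.36 and 11.31 in wild type (log2 change -1.94, limma adjusted p = 0.000684); whether its probes lie in the deleted part of the gene is not known.

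Both measured genes of paralogue group 2, Hoxa2 and Hoxb2, were higher in Tbx1 null arches on every array, and no other Hox gene came near them. Hoxa2 had a level 2.15-fold that of wild type and Hoxb2 one 1.54-fold that of wild type, while the other 35 measured Hox genes had log2 changes between -0.21 and 0.18. No Hox gene passed the adjusted threshold in limma. Across all genes 17 passed as higher (0.0853%) and 15 as lower (0.0752%).

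Hoxa2 (probe set 10544751, Entrez gene 15399) had levels of 8.33, 7.44 and 7.66 on the 3 Tbx1 null arrays and of 6.53, 6.73 and 6.85 on the 3 wild-type arrays. The lowest Tbx1 null array lay above the highest wild-type array, and Tbx1 null replicate 1 stood above the other Tbx1 null arrays. The means were 7.81 ± 0.46 in Tbx1 null and 6.70 ± 0.16 in wild type (SD, n = 3 each), a log2 change of 1.11 (SE 0.21, 95% confidence interval 0.63 to 1.59). Among 19938 genes this was number 2 in order of increase and number 125 in order of p, and its limma adjusted p was 0.126. Without Tbx1 null replicate 1 the change was 0.85, the lowest of the 6 fits that left out an array, and it stayed at an unadjusted limma p of 0.0039 or less in all of them.

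Hoxb2 (probe set 10380660, Entrez gene 103889), a gene of rhombomeres and second-arch crest, had levels of 9.0003, 8.868 and 9.131 in Tbx1 null and of 8.534, 8.282 and 8.306 in wild type. Its arrays did not overlap between genotypes. Their SDs, 0.13 in Tbx1 null and 0.14 in wild type, were above the median SD within a genotype of 0.064 over all genes. The means were 8.9996 ± 0.13 in Tbx1 null and 8.37 ± 0.14 in wild type (SD, n = 3 each), a log2 change of 0.63 (SE 0.09, 95% confidence interval 0.42 to 0.83). It was number 26 in order of increase and number 45 in order of p, with a limma adjusted p of 0.0577. Centring each array on its median brought this limma adjusted p to 0.0464, within a range of 0.00792 to 0.216 over the 13 alternatives.

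**Figure D1:**
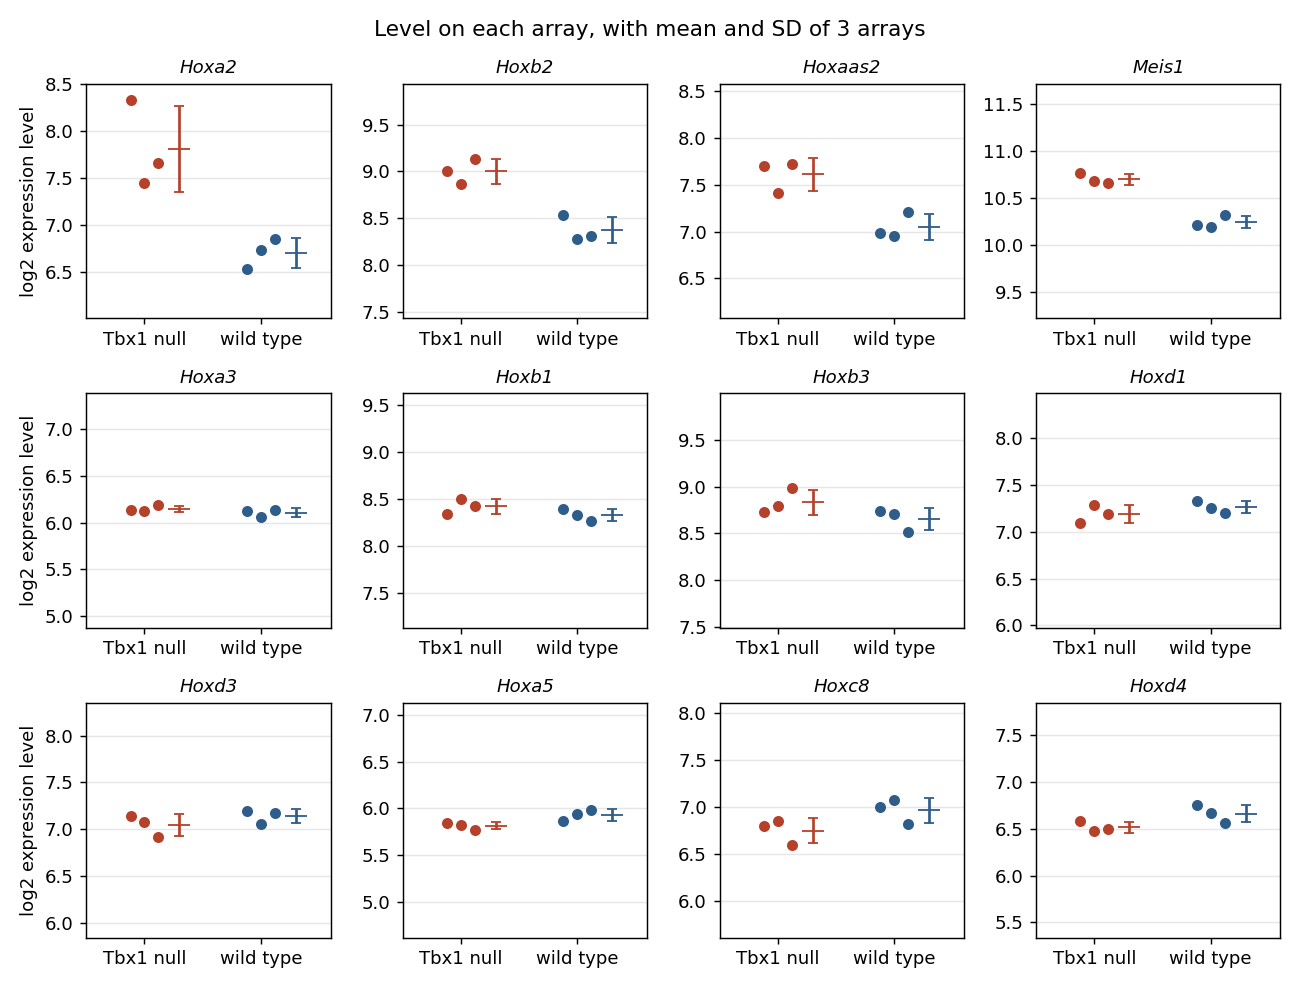
Log2 expression level of 12 genes on each array, Tbx1 null left and wild type right, with the mean and SD of 3 arrays beside the points; every panel spans the same number of log2 units. Hoxa2, Hoxb2, Hoxaas2 and Meis1 have no overlap between genotypes and lie higher in Tbx1 null, while Hoxa3, Hoxb1, Hoxb3, Hoxd1 and Hoxd3 overlap.

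At an unadjusted limma p under 0.05, Hoxa2 and Hoxb2 made up the 2 Hox genes on the higher side, 5.41% of 37, against 5.50% of all genes. On the lower side 3 Hox genes were at that threshold (8.11%), against 3.94% of all genes. Both shares of Hox genes rest on few genes, and the one on the higher side is no larger than that of all genes. Of the 37, 2 had no overlap on the higher side, against 8.36% of all genes, and 1 had none on the lower side, against 7.06% of all genes. Hoxa2 and Hoxb2 stood out by the size of their change, and the number of Hox genes that separated the genotypes was not large.

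The remaining genes at the front of the clusters were nearly level. Hoxb1, a gene of rhombomere 4, neighbours Hoxb2 in the cluster and had levels of 8.34, 8.50 and 8.43 in Tbx1 null and of 8.39, 8.33 and 8.27 in wild type. Its change was 0.09 (95% confidence interval -0.04 to 0.22), and the genotypes overlapped. Hoxd1, the other measured gene of paralogue group 1, was at 7.10, 7.29 and 7.19 in Tbx1 null and at 7.33, 7.25 and 7.20 in wild type. That was a change of -0.07 (95% confidence interval -0.21 to 0.08), so the pair of measured group 1 genes had opposite signs and intervals that held 0.

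In paralogue group 3, whose genes are active in the third arch and more posterior crest, Hoxb3 had the largest change. It was at 8.73, 8.79 and 8.98 in Tbx1 null and at 8.74, 8.70 and 8.52 in wild type, a change of 0.18 (95% confidence interval -0.01 to 0.37, limma adjusted p = 0.568). One Tbx1 null array lay just under the highest wild-type array. Hoxa3, the next coding gene to Hoxa2 in the cluster, was at 6.13, 6.13 and 6.19 in Tbx1 null and at 6.12, 6.05 and 6.14 in wild type, a change of 0.04 (95% confidence interval -0.06 to 0.15). Hoxd3 was at 7.15, 7.08 and 6.91 in Tbx1 null and at 7.20, 7.06 and 7.18 in wild type, a change of -0.10 (95% confidence interval -0.26 to 0.07). None of the group 3 genes separated the genotypes.

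The contrast between group 2 and its neighbours was measured within each array, which removes any shift shared by a whole array. The level of Hoxa2 minus that of Hoxa3 was 2.19, 1.32 and 1.47 in Tbx1 null and 0.41, 0.67 and 0.71 in wild type, a difference of 1.06 between genotypes. Hoxb2 minus Hoxb3 was 0.27, 0.08 and 0.15 in Tbx1 null and -0.20, -0.42 and -0.21 in wild type, a difference of 0.45. Hoxb2 minus Hoxb1 differed by 0.53. In each of these 3 pairs the genotypes did not overlap, and the exact two-sided permutation test gave p = 0.1, the smallest that 3 arrays against 3 allow, so the design cannot pass 0.05 here. Hoxa2 minus Hoxb2 differed by 0.48 between genotypes with overlapping arrays (exact p = 0.2), a comparison this design could not have called either. The pairs were chosen around Hoxa2 and Hoxb2 with their changes known. With 4 pairs compared and no raw p under 0.1, no adjusted value could be lower.

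**Figure D2:**
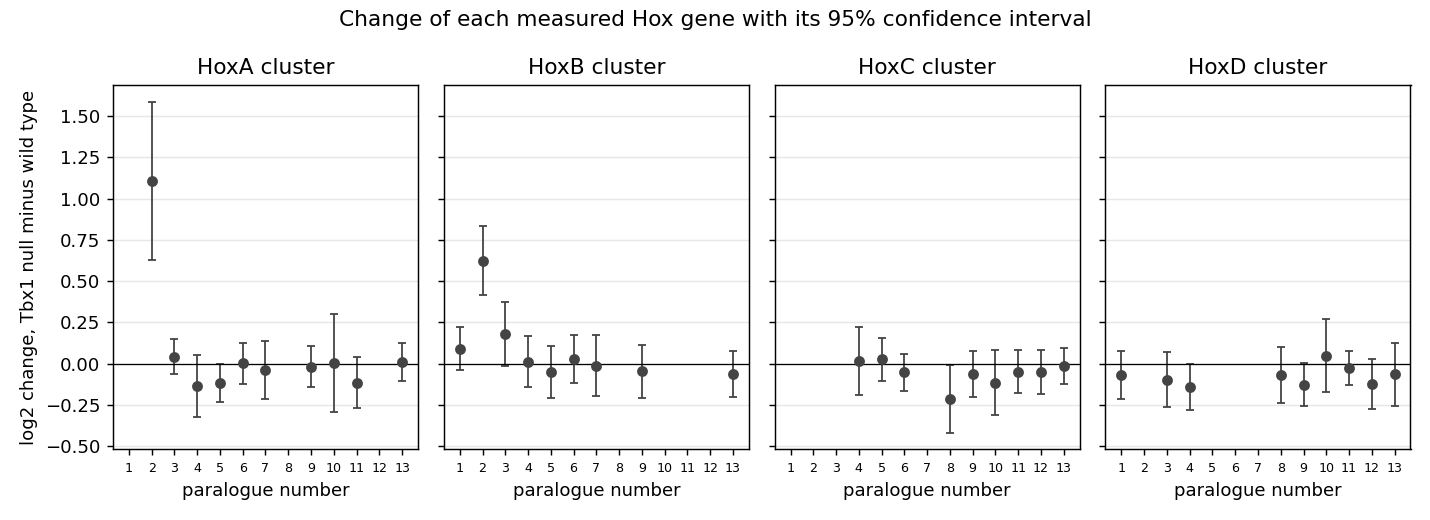
Log2 change (Tbx1 null minus wild type) of the 37 measured Hox genes by paralogue number, 1 panel for each cluster, with 95% confidence intervals from limma. The paralogue 2 genes of HoxA (1.11) and HoxB (0.63) stand above the rest, whose changes lie between -0.21 and 0.18.

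By cluster, the changes centred close to 0. HoxA had a median log2 change of -0.007 over 10 genes and HoxB one of 0.013 over 9 genes, each with 5 genes above 0. HoxC had a median of -0.050 over 9 genes with 2 above 0, and HoxD had a median of -0.068 over 9 genes with 1 above 0. The median over all 37 Hox genes was -0.046, with 13 above 0 and 24 below, against -0.006 over all 19938 genes, with 9269 above and 10669 below. The medians of the HoxA and HoxB clusters were so near 0 that leaving out 1 array turned their sign: HoxA ran from -0.064 (without wild type replicate 3) to 0.016 (without wild type replicate 2), and HoxB from -0.048 (without wild type replicate 3) to 0.071 (without wild type replicate 1). HoxA was also above 0 without Tbx1 null replicate 3 and HoxB below 0 without Tbx1 null replicate 1. Centring each array on its median put HoxB at -0.014. HoxC and HoxD stayed below 0 in all 6 such fits, between -0.063 and -0.035 and between -0.116 and -0.068; the outermost HoxD value came without Tbx1 null replicate 2. HoxC and HoxD hold no gene of paralogue group 2.

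By paralogue number, group 2 had a median change of 0.87 over 2 genes, and the other groups with 2 to 4 measured genes had medians between -0.14 (group 8) and 0.04 (group 3). Groups 1 to 4 together, whose anterior limits lie in the hindbrain and its crest, had a median of 0.016 over 11 genes, with 7 above 0. Groups 5 to 13 had a median of -0.050 over 26 genes, with 6 above 0. Centring each array on its median put groups 1 to 4 at -0.011. Leaving out wild type replicate 3 gave -0.041 and leaving out wild type replicate 1 gave 0.070; the median was 0.043, 0.027 and 0.024 without Tbx1 null replicates 1, 2 and 3. The median of groups 5 to 13 was -0.088 when wild type replicate 3 was left out and -0.021 when wild type replicate 2 was; over all Hox genes the medians were -0.078 and -0.019 in the same fits and -0.029 without Tbx1 null replicate 3.

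For groups 5 to 13, which pattern the trunk, limbs and tail, the 95% confidence intervals of the 26 changes all lay between -0.42 and 0.30 on the log2 scale. Changes as large as that of Hoxb2 lie outside those bounds for every one of these probe sets. A transcript that the tissue does not hold would also give no change, and these values cannot tell that from an unchanged transcript.

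The 3 Hox genes with an unadjusted limma p under 0.05 on the lower side came from different clusters and paralogue groups, and their changes were small. Hoxc8, a gene of the thoracic region, was at 6.800, 6.853 and 6.600 in Tbx1 null and at 6.999, 7.080 and 6.818 in wild type, a change of -0.21 (SE 0.09, limma adjusted p = 0.492). Hoxd4, a gene of the caudal hindbrain and neck, was at 6.58, 6.47 and 6.50 in Tbx1 null and at 6.75, 6.66 and 6.57 in wild type, a change of -0.14 (SE 0.06, limma adjusted p = 0.505). Both overlapped between genotypes. Hoxa5, which acts in lung and neck development, was at 5.85, 5.82 and 5.77 in Tbx1 null and at 5.86, 5.95 and 5.98 in wild type, a change of -0.12 (SE 0.05, limma adjusted p = 0.508). It alone did not overlap, by a gap smaller than the SD of either genotype. The count of 3 rested on single arrays: it was 0 without Tbx1 null replicate 3, 1 without wild type replicate 1 (Hoxa5) or 2 (Hoxd9), and 7 without wild type replicate 3.

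In each cluster the genes of highest and lowest mean level were set aside by rule to show the range of the signal, although probe sets differ in brightness and their levels cannot be ranked as transcript amounts. In HoxA these were Hoxa4, at 7.97, 8.01 and 7.77 in Tbx1 null and at 8.09, 8.14 and 7.93 in wild type, and Hoxa5. In HoxB they were Hoxb3 and Hoxb4, the second at 6.79, 6.87 and 6.90 in Tbx1 null and at 6.95, 6.85 and 6.72 in wild type. In HoxC they were Hoxc8 and Hoxc6, the second at 5.81, 5.68 and 5.74 in Tbx1 null and at 5.79, 5.78 and 5.83 in wild type. In HoxD they were Hoxd11, at 7.35, 7.39 and 7.33 in Tbx1 null and at 7.42, 7.39 and 7.33 in wild type, and Hoxd8, at 6.23, 6.23 and 6.17 in Tbx1 null and at 6.29, 6.42 and 6.12 in wild type. Apart from Hoxa5, none of these separated the genotypes. Of the 37 probe sets, 16 lay in the lowest quartile of mean level over all genes, 19 in the second, 2 in the third and 0 in the highest.

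For groups 5 to 13 the median deviation from each gene's mean over the 6 arrays was -0.019, 0.011 and -0.057 on Tbx1 null replicates 1, 2 and 3, and 0.056, 0.060 and -0.050 on wild-type replicates 1, 2 and 3. Wild-type replicates 1 and 2 lay above every Tbx1 null array, and wild-type replicate 3 lay among them. Genes of the second quartile of mean level over the whole array deviated likewise, by 0.005, 0.008 and -0.035 in Tbx1 null and by 0.045, 0.028 and -0.045 in wild type. In the lowest quartile the values were 0.004, -0.001 and -0.025 in Tbx1 null and 0.026, 0.020 and -0.026 in wild type. Dim probe sets in general were thus low on replicate 3 of both genotypes and high on wild-type replicates 1 and 2, and the part of this in the Hox changes was not tested. The median changes of the lowest and second quartiles over all genes were -0.014 and -0.019.

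**Figure D3:**
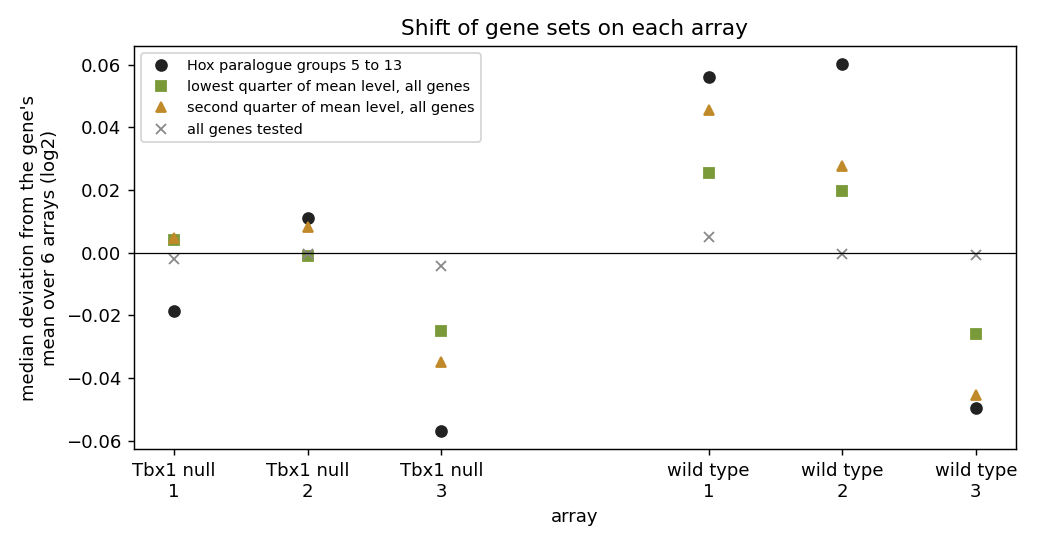
Median deviation from each gene's mean over 6 arrays (log2) on the 3 Tbx1 null arrays, left, and the 3 wild-type arrays, right, for the 26 Hox genes of paralogue groups 5 to 13, for all genes in the 2 lower quartiles of mean level and for all genes tested. The Hox genes sit at -0.057 on Tbx1 null replicate 3 and -0.050 on wild-type replicate 3, on the same side as the dim genes of those arrays.

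The probe set shared by Hoxb8 and Hoxb7 was at 6.34, 6.37 and 6.34 in Tbx1 null and at 6.36, 6.40 and 6.59 in wild type. Its change was -0.10, with a limma adjusted p of 0.733 in a fit to every probe set. The highest wild-type array stood apart from the other 5 arrays. Wild-type replicate 1 lay among the Tbx1 null arrays, and wild-type replicate 2 lay just above them. The Hoxb7 probe set with a single symbol had a change of -0.01.

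Of the non-coding RNAs of the clusters, 10 of 16 listed were measured, and 1 of them went with Hoxa2. Hoxaas2 (probe set 10538299, Entrez gene 105242657), a long non-coding RNA between Hoxa2 and Hoxa3, was at 7.70, 7.41 and 7.72 in Tbx1 null and at 6.98, 6.95 and 7.21 in wild type. The genotypes did not overlap, and the means were 7.61 ± 0.17 in Tbx1 null and 7.05 ± 0.14 in wild type (SD, n = 3 each), 1.48-fold of wild type. The log2 change was 0.56 (SE 0.10, 95% confidence interval 0.33 to 0.80), number 42 in order of increase, with a limma adjusted p of 0.118. In the RefSeq annotation of GRCm38.p6 Hoxaas2 overlaps the span of Hoxa3, whose own probe set had a change of 0.04, and does not overlap Hoxa2. Where along the locus the probes lie, and whether they read 1 strand, was not tested. Its limma adjusted p passed with a variance trend and robust estimation (0.0449) and with array weights (0.0222), out of a range of 0.0222 to 0.334 over 13 alternatives.

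The promoter-side sequence of Hoxa2 is shown because Hoxa2 had the largest Hox change, with that of Hoxb1 beside it as a front-end gene whose arrays overlapped. Each is the 250 bases before the RefSeq start (GRCm38.p6), 5′ to 3′ on the strand of the gene, with matches to the motifs searched in capitals; Hoxa2 lies on the minus strand at chr6:52164832-52165081 and Hoxb1 on the plus strand at chr11:96365508-96365757.
Hoxa2: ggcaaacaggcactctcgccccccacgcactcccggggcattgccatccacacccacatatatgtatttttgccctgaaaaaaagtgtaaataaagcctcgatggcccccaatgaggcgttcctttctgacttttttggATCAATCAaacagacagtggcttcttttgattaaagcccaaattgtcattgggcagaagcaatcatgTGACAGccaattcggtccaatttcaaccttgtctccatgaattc
Hoxb1: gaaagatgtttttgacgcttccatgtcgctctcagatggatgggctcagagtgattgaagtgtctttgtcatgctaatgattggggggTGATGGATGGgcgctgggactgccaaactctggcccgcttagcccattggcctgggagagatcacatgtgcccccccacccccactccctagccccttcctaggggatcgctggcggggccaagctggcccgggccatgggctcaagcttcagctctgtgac

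Motifs were searched on both strands of the same 250 bases in 32851 RefSeq windows, 23 of which belonged to 21 measured Hox genes. The core bound by MEIS and PKNOX, TGACAG, was found in the windows of Hoxa2 and Hoxa3, 8.70% of the Hox windows, against 15.9% of all windows. The core bound by PBX with Hox, TGATNNAT, was found in those of Hoxa2, Hoxb1 and Hoxd11, 13.04% of the Hox windows, against 7.68% of all windows. Its Hoxb1 match is part of a longer PBX-Hox repeat, the whole run in capitals above and a known autoregulatory element, which 0.0852% of all windows held. The half-site of nuclear receptors such as the retinoic acid receptors, AGGTCA, stood in 6 Hox windows (26.09%, against 14.02% of all windows), among them that of Hoxd4, and in neither sequence above. The T-box half-site AGGTGTGA stood in the Hoxd9 window alone among Hox genes, against 1.12% of all windows. A match describes the letters of the window and shows no binding. Hoxb2, not in the promoter table, is named only.

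The microRNA genes of the clusters are shown by their mature 5p strands because they fall into families by seed (bases 2 to 8, in capitals), as RefSeq gives them. Mir10a and Mir10b lie in HoxB and HoxD, and Mir196b, Mir196a-1 and Mir196a-2 lie in HoxA, HoxB and HoxC.
mmu-miR-10a-5p: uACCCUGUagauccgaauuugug
mmu-miR-10b-5p: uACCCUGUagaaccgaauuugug
mmu-miR-196a-5p: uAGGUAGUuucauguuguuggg
mmu-miR-196b-5p: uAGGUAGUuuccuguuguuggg

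The members of a family share their seed and differ at 1 base, U12A from miR-10a to miR-10b and A12C from miR-196a to miR-196b, counted from the 5′ end. Members of the miR-10 family are known to target Hox transcripts, and miR-196 is known to restrain Hoxb8. Mir196b was at 6.45, 6.28 and 6.26 in Tbx1 null and at 6.44, 6.57 and 6.48 in wild type, a change of -0.17 (limma adjusted p = 0.460). Mir10a had a change of 0.06, Mir10b of -0.03, Mir196a-1 of 0.01 and Mir196a-2 of 0.08, and all of these overlapped between genotypes. Mir615, within Hoxc5, had a change of -0.08. No source used here says whether such a probe set reads a precursor or a longer host transcript. The antisense RNA Hoxd3os1 had a change of -0.11 on its brighter probe set and of 0.04 on the other, and Hottip, a long non-coding RNA at the Hoxa13 end, one of -0.10.

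Of the non-Hox genes that flank the clusters, 0 of 17 measured were called by limma and 1 had an unadjusted p under 0.05, on the lower side, where 3.94% of all genes did. It was Nfe2, an erythroid transcription factor gene near HoxC, with a change of -0.23 (limma adjusted p = 0.269). The even-skipped homologues beside HoxA and HoxD, Evx1 and Evx2, had changes of -0.10 and -0.06. All 8 measured primitive erythroid markers were at an unadjusted p under 0.05 on the lower side (against 3.94% of all genes), with a median of -0.31, and their part in the Nfe2 value was not tested.

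Among the TALE cofactors, 8 of 9 listed genes were measured and Meis1 rose. Meis1 (probe set 10384504, Entrez gene 17268) was at 10.76, 10.67 and 10.66 in Tbx1 null and at 10.21, 10.19 and 10.31 in wild type, with no overlap. The log2 change was 0.46 (SE 0.05, limma adjusted p = 0.0374), and the call was lost when any 1 array other than wild type replicate 3 was left out (limma adjusted p up to 0.170). Pknox2 went the other way, at 10.85, 10.76 and 10.99 in Tbx1 null and at 11.12, 11.18 and 11.24 in wild type, a change of -0.31 (adjusted p = 0.171). Meis2, Meis3 and Pknox1 had changes of 0.09, 0.07 and 0.12, and Pbx2, Pbx3 and Pbx4 had changes of 0.04 to 0.06. The median of the list was 0.06, with 7 of 8 genes above 0.

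Of 21 listed regulators of the clusters, 19 were measured, and limma called 0 as higher and 1, Rxrg, as lower. Rxrg, a retinoid X receptor gene, was at 8.10, 7.79 and 7.96 in Tbx1 null and at 8.69, 8.53 and 8.66 in wild type (log2 change -0.68, adjusted p = 0.0422); it lost the call with any 1 of the 6 arrays left out. Rdh10, which makes retinaldehyde for retinoic acid synthesis, had a change of 0.23 (adjusted p = 0.358). Rarb, a retinoic acid receptor gene that is itself induced by retinoic acid, had one of 0.16, and Rxra one of -0.14. Egr2, which activates Hoxa2 and Hoxb2 in the hindbrain, was at 7.18, 7.24 and 7.15 in Tbx1 null and at 7.14, 7.35 and 7.12 in wild type, a change of -0.01. At an unadjusted limma p under 0.05 the list had 2 higher and 3 lower genes of 19, against 5.50% and 3.94% of all genes. Its median was -0.01.

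Of 26 listed Polycomb and trithorax genes, 25 were measured and 0 were called by limma. At an unadjusted p under 0.05 there was 1 gene, higher in Tbx1 null, against 5.50% of all genes on that side. It was Jarid2, a partner of the Polycomb repressive complex that methylates histone H3, at 11.93, 11.96 and 11.96 in Tbx1 null and at 11.80, 11.73 and 11.71 in wild type (change 0.20, adjusted p = 0.177). The trithorax gene Kmt2a, an activator of Hox genes, had a change of 0.16 and the demethylase gene Kdm6b one of 0.10. Both were above wild type on every array. Of the 25 genes, 5 had no overlap on the higher side and 1 on the lower, against 8.36% and 7.06% of all genes. The median of the list was 0.02.

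**Figure D4:**
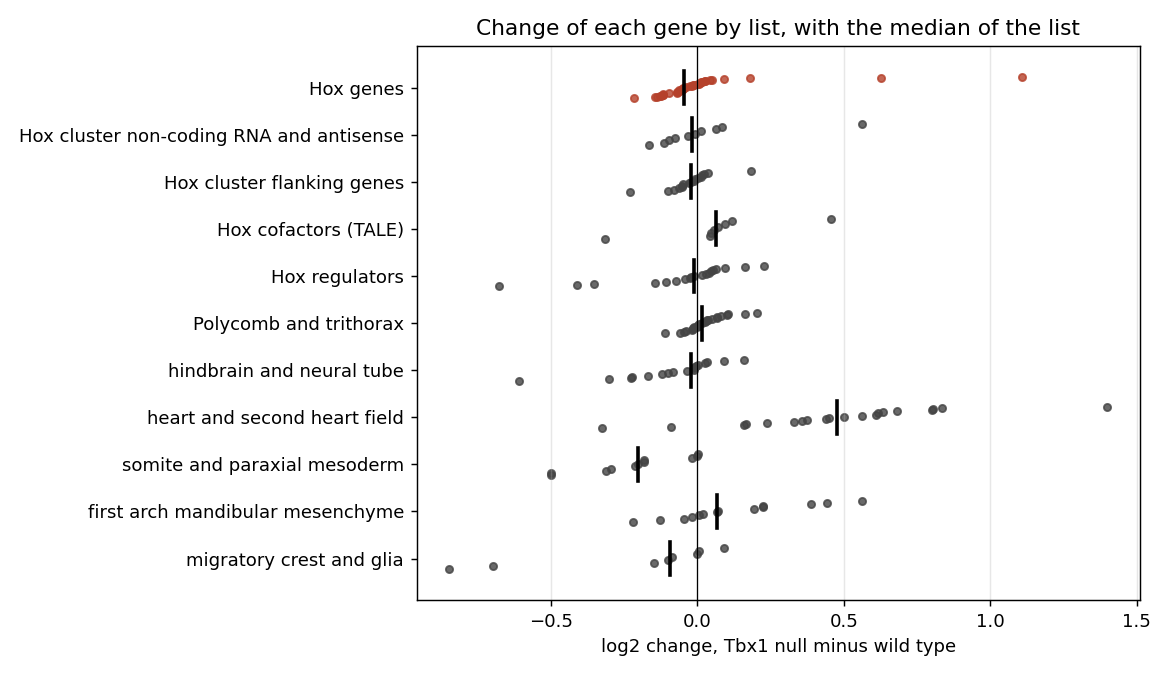
Log2 change (Tbx1 null minus wild type) of each measured gene by list, Hox genes on top, with a bar at the median of each list. The Hox median is -0.046 with Hoxa2 and Hoxb2 far to the right, and the heart and second heart field list has the highest median of those drawn, 0.48.

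Markers of other tissues that a dissected arch could hold were read beside Hoxa2 and Hoxb2, since whole arches do not show which cells carry a transcript, and fewer cells of a type cannot be told apart from less RNA per cell. The mandibular mesenchyme list, with Msx2, Hand2 and Dlx genes, had genes with mean levels from 8.49 to 12.9, from about the middle of the array's range upward. Of its 14 measured genes 6 were at an unadjusted limma p under 0.05 on the higher side and 1 on the lower. Over all genes these shares were 5.50% higher and 3.94% lower, and the counts of the marker lists that follow stand beside the same shares. Limma called 1 gene of the mandibular list, Msx2, as higher. Msx2 was at 12.21, 12.17 and 12.18 in Tbx1 null and at 11.73, 11.86 and 11.81 in wild type (change 0.39, limma adjusted p = 0.0422). The second-arch and posterior crest list had 8 measured genes, among them the Hox genes Hoxa2, Hoxb2, Hoxa3, Hoxb3 and Hoxd3. Of the 8, 5 lay above 0 (Hoxa2, Hoxb2, Hoxa3, Hoxb3 and Meis1), with a median of 0.11 over the list. That count and median thus largely repeat the Hox changes given above and are no separate measure of second-arch tissue. Among its members that are not Hox genes, Meis1 rose, as given above, while Six2 and Pou3f3 had lower levels on every Tbx1 null array. Six2 was at 8.91, 8.86 and 9.12 in Tbx1 null and at 9.98, 9.62 and 9.63 in wild type (change -0.78, adjusted p = 0.0577). Pou3f3 was at 7.81, 8.02 and 7.94 in Tbx1 null and at 8.27, 8.57 and 8.68 in wild type (change -0.58, adjusted p = 0.119). These 3 non-Hox members differed in sign, and none of them overlapped between genotypes. Whether each of them marks second-arch cells, or answers to Hoxa2 itself, was not tested. Their signs are therefore not a measure of second-arch tissue in the samples.

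Hindbrain and neural tube markers had 1 higher and 4 lower of 18 genes at an unadjusted p under 0.05 and a median of -0.02. Their mean level per array was 7.69, 7.72 and 7.72 in Tbx1 null and 7.90, 7.75 and 7.75 in wild type. Somite markers had 0 higher and 2 lower of 11, with Meox1 at a change of -0.50 (adjusted p = 0.05002). Crest and glial markers had 0 higher and 2 lower of 8, and limma called 1 of them, Ngfr, as lower. Ngfr was at 8.53, 8.44 and 8.53 in Tbx1 null and at 9.31, 9.19 and 9.09 in wild type (change -0.70, limma adjusted p = 0.0142). The part of such tissues in the Hox values was not tested.

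Heart and second heart field genes lay mostly above wild type: 16 of 20 were at an unadjusted limma p under 0.05 on the higher side and 0 on the lower, 1 of them called (Tbx20), with a median of 0.48. Their mean level per array was 9.08, 9.22 and 9.40 in Tbx1 null and 8.91, 8.67 and 8.69 in wild type. Tbx20 was at 8.32, 8.57 and 8.45 in Tbx1 null and at 7.77, 7.65 and 7.89 in wild type (change 0.68, limma adjusted p = 0.0422). Hand2 is counted on the higher side both here and in the mandibular list. Within Tbx1 null the heart list was highest on replicate 3 and lowest on replicate 1. Hoxb2 was highest on replicate 3 and lowest on replicate 2, and Hoxa2 was highest on replicate 1 and lowest on replicate 2. Surface ectoderm markers also lay above wild type, with 9 of 9 measured genes above 0, a median of 0.17, and 5 genes on the higher side with an unadjusted p under 0.05 in limma, against 0 on the lower. Their mean level per array was 10.33, 10.30 and 10.30 in Tbx1 null and 10.09, 10.10 and 10.15 in wild type. The part of heart field or ectoderm cells in the Hoxa2 and Hoxb2 values was not tested.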

How the data were processed

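Levels of RNA from E9.5 mandibular arches were measured on 6 Affymetrix Mouse Gene ST 1.0 arrays, 3 Tbx1 null and 3 wild type, from 300 ng of total RNA each. The authors deposited log2 values, for which the submitters' processing notes name RMA (a method that corrects background, applies quantile normalization and summarises probes) and Expression Console 1.1 of Affymetrix; no source used here names the library files or genome build. Scan dates were not used here. Of 35556 probe sets, 21789 had 1 gene symbol in GEO's platform annotation, 1621 had several and 12146 had none; 21698 matched RefSeq by Entrez ID, which changed 0 symbols. Where a gene had more than 1 probe set (999 genes), the one with the highest mean was kept, leaving 19938 genes. The table held 0 columns of other samples.

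The test was limma's moderated one (version 3.58.1, R 4.3.3), with p-values adjusted over all 19938 genes. It used lmFit, then eBayes, on all genes and without a block. Limma was also run on simulated data drawn from its own variance model with independent noise. Those data held no pooling, sex difference or array shift, so that run does not show how limma performs on these arrays. Within-array differences used exact permutation tests. The Hox genes and the other lists were chosen with earlier results of these data known. By rule, array values are given for Hox genes at an unadjusted p under 0.05 or without overlap and for paralogue groups 1 to 3. They are also given for the highest and lowest gene of each cluster by mean level. Of other lists, genes past the threshold have array values. Up to 4 genes of lowest p in a list (markers, 2) were named, some by their change only. Evx2, Mir10a, Mir10b, Mir196a-1, Mir196a-2, Hoxd3os1, Hoxb7, Egr2 and the remaining TALE genes were named for their place or role, after their values were seen. Endothelium (median change -0.037, with 0 of 8 genes at an unadjusted p under 0.05) and pharyngeal endoderm (0.034, with 1 higher and 1 lower of 10) were read as further marker lists. The alternatives were a replicate block, leaving out each array, quantile normalization again, centring on the array median, genes above the first quartile of mean level, a variance trend with robust estimation, averaging the probe sets of each gene, and array weights.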

Additional observations from a re-analysis of the deposited data

How the results depend on the processing

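No result changed sign past a threshold. Hoxa2 and Hoxb2 were at an unadjusted limma p under 0.05 in all 13 alternatives, with changes of 0.85 to 1.29 and of 0.56 to 0.71; Hoxb2 passed the adjusted threshold in 3 of them and Hoxa2 in 0 (adjusted p 0.0512 to 0.339). The count of Hox genes past the adjusted threshold, 0, was 1 with centring, with a variance trend and robust estimation, and with array weights. The counts of all genes called, 17 higher and 15 lower, were 12 and 22 after quantile normalization again, 16 and 30 after centring, 57 and 39 with a variance trend, and 226 and 108 with array weights. With 1 array left out they were 0 to 12 higher and 3 to 10 lower, from fewer arrays. The 3 Hox genes at an unadjusted p under 0.05 on the lower side were 0 to 7 with 1 array left out, 5 after quantile normalization again or centring, 1 above the first quartile or with a variance trend, and 6 with array weights. Above the first quartile the HoxC median was -0.132, from fewer genes. The replicate block gave 2 higher and 4 lower genes and 5 Hox genes on the lower side; Meis1 lost its call (limma adjusted p = 0.0970) and Rxrg kept it. Same-numbered arrays had correlations of their deviations of -0.045, 0.26 and 0.15, and not every array correlated best with its own number, so the numbers were not taken as pairs. The causes of these differences were not tested. Most Hox probe sets lay in the 2 lower quartiles of signal; the values carry no background measure, so signal over background is not known here.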
